A study of Mus musculus with 8 samples.

Results

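Hdac3 sites that lie beside a Foxa2 site without touching it are the subject here. They were taken from lists of binding sites made by chromatin immunoprecipitation with sequencing (ChIP-seq) of wild-type C57BL/6 mouse liver, an inbred laboratory strain, at 3 months (young) and 21 months (old). The groups were Foxa2 young, Foxa2 old, Hdac3 young and Hdac3 old, each with 2 libraries that share 1 list. The lists held 6604, 12834, 5828 and 2930 sites in that order. The sites were chosen by position alone: an Hdac3 site of either age had to overlap no Foxa2 site of either age, and its nearest edge had to lie at most 10000 bp from one. The edge distance is the begin of the later site minus the end of the earlier one. The rule was met by 1564 of 8758 Hdac3 sites, called neighbouring sites below, 1090 from young and 474 from old liver. Positions are those of mm9 as the lists give them, and the sites carry no gene names because no mm9 annotation was used here.

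Foxa2 is a forkhead transcription factor that binds regulatory DNA in hepatocytes, also in closed chromatin, and controls genes of glucose, lipid and bile acid metabolism. Hdac3 is a histone deacetylase, an enzyme that removes acetyl groups from histones. It works in the NCoR and SMRT corepressor complexes, which nuclear receptors and other factors bring to DNA, and in liver it is known for repressing genes of lipid synthesis. Hdac3 does not bind a DNA sequence of its own. Which factors, if any, bring it to the sites listed here was not tested.

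With 1 list per group, no value has a replicate error and no test between ages or classes was made. The 95% intervals are exact binomial intervals for shares and exact Poisson intervals for densities. They cover counting error only, treat sites as independent, and are too narrow where sites lie in runs. Read depth per library was unknown. Liver holds several cell types, so a change in cell makeup and a change in binding cannot be told apart. Because some stretches were packed with sites, values are also given outside 18 crowded windows, each of 100 kb and holding 6 or more sites of 1 Hdac3 list, which were chosen after the values were seen. In these windows lay 52 young and 83 old neighbouring sites, 4.77% and 17.5% of them, against 3.16% and 7.30% of all sites of the 2 Hdac3 lists.

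Neighbouring sites made up 18.7% of the young Hdac3 list (95% interval 17.7 to 19.7) and 16.2% of the old one (14.9 to 17.6). A further 352 young and 283 old sites lay on a Foxa2 site, and 4386 and 2173 lay over 10000 bp away. The DNA 1 to 10000 bp from a Foxa2 site measured 260 Mb, 10.1% of the 2576 Mb between the first and last listed site of each chromosome. Hdac3 density in this DNA was 4.20 sites per Mb at 3 months (95% interval 3.95 to 4.45) and 1.83 at 21 months (1.66 to 2.0). Over 50 kb from any Foxa2 site it was 1.73 (1.67 to 1.80) and 0.897 (0.852 to 0.943). Neighbouring DNA thus held 2.42 times as many young and 2.04 times as many old Hdac3 sites per Mb as distant DNA. Outside crowded windows these ratios were 2.33 and 1.68.

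Hdac3 density fell with distance from Foxa2 at both ages. For young Hdac3 it was 12.4 sites per Mb in the first 500 bp (202 sites, 95% interval 10.8 to 14.3), 7.0 between 500 and 1000 bp, 4.97 up to 2500 bp, 2.95 up to 5000 bp and 3.11 up to 10000 bp. For old Hdac3 the same steps gave 6.41 (104 sites, 5.24 to 7.77), 3.05, 2.0, 1.30 and 1.27. At both ages most of the fall lay within 2500 bp of Foxa2. Across the limit of 10000 bp young Hdac3 went from 3.11 (2.80 to 3.45) to 2.53 (2.32 to 2.76), intervals that did not overlap, and old Hdac3 from 1.27 (1.07 to 1.49) to 1.08 (0.940 to 1.23), intervals that did. In the shells that the rule did not use, between 10000 and 20000 bp and between 20000 and 50000 bp, density was 2.53 and 2.24 for young and 1.08 and 1.04 for old Hdac3. All 4 values were above those over 50 kb away, by 1.46, 1.30, 1.20 and 1.16 times. The lower interval bounds in these shells, 2.32 and 2.11 for young and 0.940 and 0.946 for old Hdac3, lay above the upper bound over 50 kb for young Hdac3, and for old Hdac3 in the farther but not in the nearer of these shells. With crowded windows left out, the old value did so in neither shell (lower bounds 0.932 and 0.940). These intervals treat sites as independent and are too narrow where sites lie in runs, so their overlap or separation is no test.

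**Figure D1:**
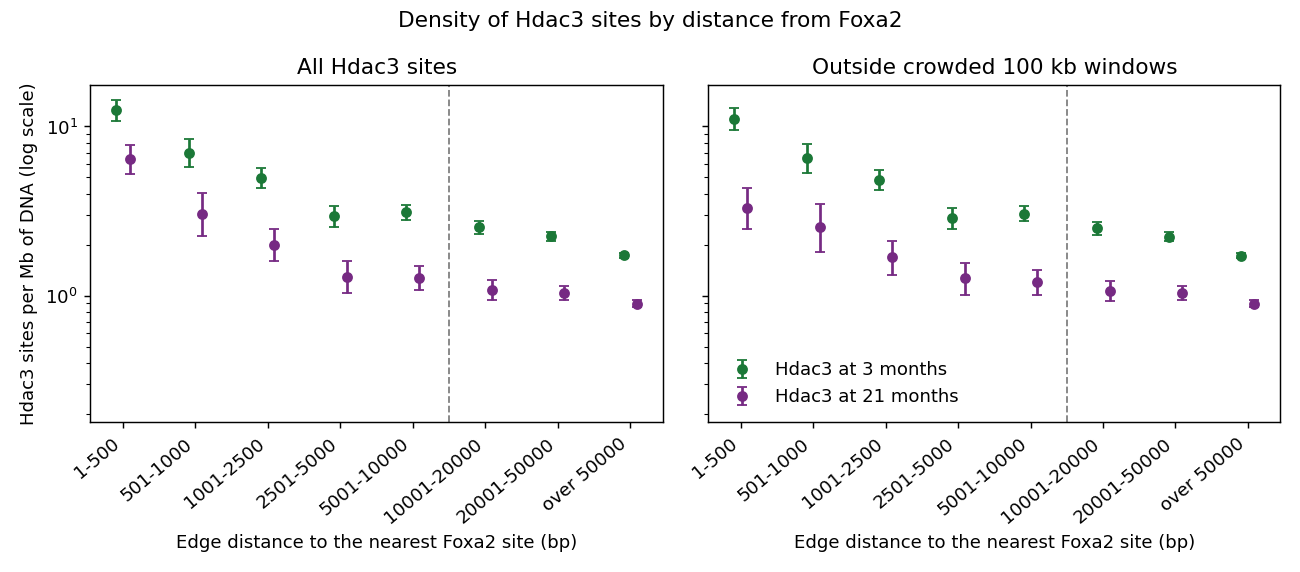
Hdac3 sites per Mb of DNA (log axis) in shells of edge distance from the nearest Foxa2 site in bp, for both ages, over all sites (left) and outside crowded windows (right). Points are the densities, bars are exact 95% Poisson intervals and the dashed line is the 10000 bp limit. Young Hdac3 falls from 12.4 to 1.73 sites per Mb and old Hdac3 from 6.41 to 0.897 over all sites, and old Hdac3 starts at 3.30 outside crowded windows.

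The rise close to Foxa2 was present with and without crowded windows, and was smaller without them in the old list. Leaving them out lowers Hdac3 density by construction, since they were chosen by their number of Hdac3 sites. In the first 500 bp, old Hdac3 density was 7.15 times that over 50 kb, and 3.68 times outside crowded windows, where 53 of the 104 sites lay. For young Hdac3 the ratios were 7.19 and 6.47, with 179 of 202 sites outside crowded windows. For old Hdac3, then, a few packed stretches held almost as many of the closest sites as the rest of the genome.

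Among the neighbouring sites, the median edge distance to Foxa2 was 2730.5 bp at 3 months (quartiles 828.5 and 6392) and 2483 bp at 21 months (657.75 and 5896.5). At most 500 bp from Foxa2 lay 18.5% of young and 21.9% of old neighbouring sites, against 6.25% of the DNA in the same 10000 bp. At most 2500 bp away lay 48.3% and 50.2%, against 28.9% of that DNA. Outside crowded windows the medians were 2880 bp at 3 months and 3539 bp at 21 months, so that the order of the ages turned.

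**Figure D2:**
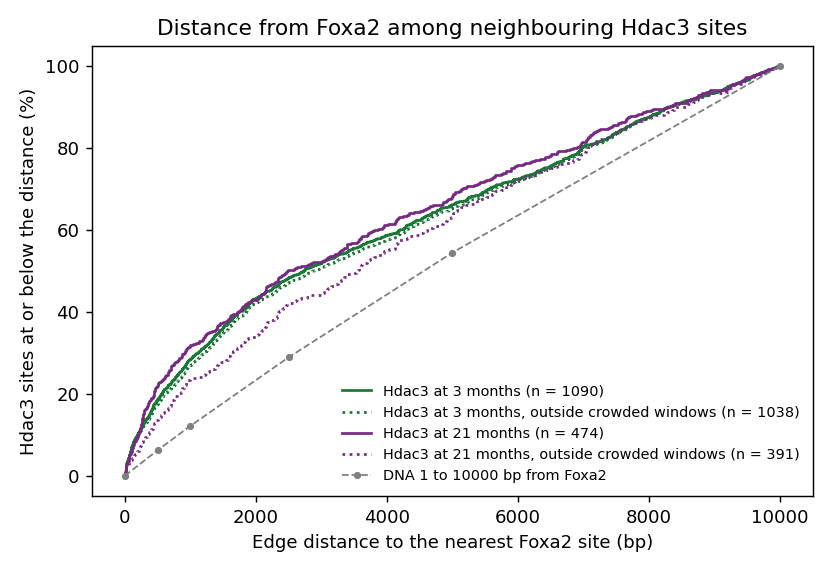
Cumulative share of neighbouring Hdac3 sites (%) by edge distance to the nearest Foxa2 site (bp), with solid lines for all 1090 young and 474 old sites and dotted lines for the 1038 and 391 outside crowded windows. The grey dashed line is the share of DNA 1 to 10000 bp from Foxa2. All 4 lines of sites run above it, and the old line outside crowded windows is the lowest of them up to about 5000 bp.

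The closest pairs nearly touched. The young Hdac3 site on chromosome 1 from 74059834 to 74059881 ended 2 bp before a Foxa2 site of the old list, from 74059883 to 74060135. On chromosome 2 a young site from 167932387 to 167932403 began 3 bp after an old-only Foxa2 site, and on chromosome 17 one from 73186936 to 73186965 lay 6 bp from another. The old Hdac3 site on chromosome 6 from 3132000 to 3132001 lay 1 bp from an old-only Foxa2 site. On chromosome 8 an old site from 19784592 to 19784605 lay 3 bp from a Foxa2 site of both ages, and one from 138529750 to 138529776 of chromosome 1 lay 6 bp from an old-only one. All 6 were 2 to 48 bp wide. At the other end, the last young sites within the limit lay 9986 and 9956 bp away and the first beyond it 10035 and 10048 bp. For old Hdac3 these were 9976 and 9940 bp, and 10037 and 10088 bp.

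Most neighbouring sites had few Foxa2 sites around them. A single Foxa2 site lay within 10000 bp of 53.7% of young and 48.7% of old neighbouring sites, counting the young and the old Foxa2 list separately, while 243 (22.3%) and 142 had 3 or more. Foxa2 sites lay on both sides of 20.6% and 25.5%. The 1090 young sites had 997 different nearest Foxa2 sites, of which 92.2% were nearest to 1 young neighbouring site, and the 474 old sites had 444, of which 94.6% were. The nearest Foxa2 site itself carried an Hdac3 site of the same age in 41 young cases (3.76%) and 34 old cases (7.17%), or 3.47% and 2.05% outside crowded windows. Of all Foxa2 sites, 2.45% carried a young and 2.02% an old Hdac3 site, or 1.83% and 1.22% outside crowded windows.

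The age of the Foxa2 neighbour did not follow the age of the Hdac3 site. Foxa2 sites were put in 3 classes: listed at 3 months only, at 21 months only or at both ages. An overlap of at least 1 bp counted as both ages. These classes made up 20.1%, 52.2% and 27.7% of the 19438 Foxa2 sites. A place listed at both ages counts in each list here, with 2690 sites per list, beside 3914 young-only and 10144 old-only sites. The 3 percentages are therefore not shares of places and are no measure for the shares of nearest sites below. Of the young neighbouring sites, 671 (61.6%, 95% interval 58.6 to 64.5) had an old-only Foxa2 site as the nearest, 230 (21.1%, 18.7 to 23.6) a young-only and 189 (17.3%, 15.1 to 19.7) one of both ages. Over the whole young Hdac3 list these shares were 56.3%, 28.1% and 15.6%. Of the old neighbouring sites, 219 (46.2%, 41.6 to 50.8) were nearest to an old-only, 184 (38.8%, 34.4 to 43.4) to a young-only and 71 (15.0%, 11.9 to 18.5) to a both-age Foxa2 site, against 50.0%, 33.4% and 16.6% of the whole old list. In these lists young Hdac3 lay beside old-only Foxa2 sites more often than old Hdac3 did, and old Hdac3 beside young-only Foxa2 sites more often than young Hdac3 did, a difference that has no replicate check. Which class led among old neighbouring sites turned with the sites used. For equal numbers of young and old Foxa2 sites, the old list was cut to its 6604 sites of lowest q. Then 56.2% of old neighbouring sites were nearest to a young-only and 26.9% to an old-only site. Among Hdac3 sites of at least 30 bp the shares were 49.8% and 36.5%. With Hdac3 and Foxa2 sites both held to a q of at most 0.1 they were 43.5% and 37.4%. In the first and last of these settings the 3 classes were formed anew from the shortened Foxa2 lists. A Foxa2 site of both ages then counted as listed at 1 age where its partner was dropped. Shares in those settings therefore move partly by construction. For young neighbouring sites the old-only class led in each of these settings, by 41.7% to 35.3% with equal numbers of Foxa2 sites.

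Part of this crossing came with the crowded windows. Outside them 31.5% of old neighbouring sites were nearest to a young-only Foxa2 site (26.9 to 36.3), level with 31.6% of old Hdac3 sites over 10000 bp away, and 53.5% to an old-only one. For young Hdac3 the share nearest to a young-only site was 19.5% outside crowded windows (17.1 to 22), below the 30.3% of distant young sites (28.9 to 31.7). Foxa2 sites of both ages were the nearest for 17.4% of young neighbouring against 12.2% of distant young sites, and for 15.1% against 11.6% in the old list, outside crowded windows. The nearest Foxa2 site had a q of at most 0.01 for 27.5% of young and 24.3% of old neighbouring sites, near the 27.5% of all Foxa2 sites. For distant Hdac3 sites these shares were 19.7% and 18.5%. The share of all Foxa2 sites counts places of both ages in each list.

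**Figure D3:**
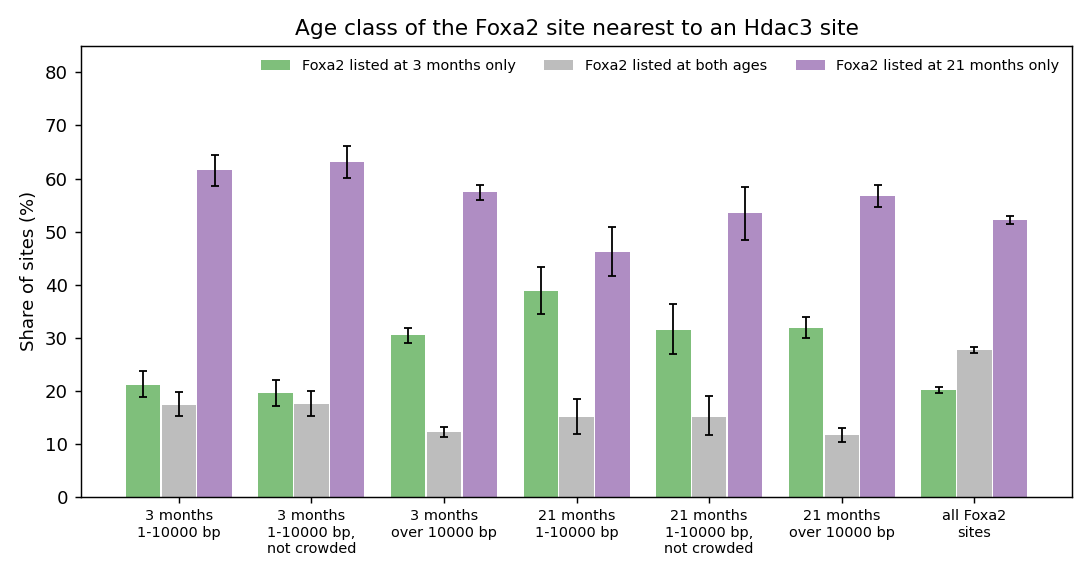
Share of Hdac3 sites (%) whose nearest Foxa2 site was listed at 3 months only, at both ages or at 21 months only, for neighbouring sites (1-10000 bp), the same outside crowded windows (not crowded) and distant sites, with all Foxa2 sites at the right. Bars start at 0 and error bars are exact 95% binomial intervals. In the bars of all Foxa2 sites a place listed at both ages counts in each list. The 3-months-only share of old neighbouring sites is 38.8%, and 31.5% outside crowded windows.

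Measured from each Foxa2 list alone, 1 to 10000 bp around young Foxa2 sites the density was 4.87 young and 2.64 old Hdac3 sites per Mb, and around old Foxa2 sites it was 4.90 and 2.20. These counts leave out only Hdac3 sites on the Foxa2 list used. In the first 500 bp, old Hdac3 reached 13.1 sites per Mb beside young Foxa2 (95% interval 10.5 to 16.2) and 5.59 beside old Foxa2 (4.35 to 7.06). Young Hdac3 reached 17.6 (14.5 to 21.2) and 14 (12 to 16.3). Outside crowded windows the old Hdac3 values were 5.53 (3.85 to 7.70) and 3.05 (2.16 to 4.19), and those of young Hdac3 were 14.4 and 12. Of the young neighbouring sites 53.2% had only old Foxa2 within 10000 bp, 15.9% only young Foxa2 and 30.9% both, and of the old ones 38.2%, 23.4% and 38.4%.

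Few neighbouring sites were listed at both ages. Of the young ones 10 overlapped an old Hdac3 site, 0.917% (95% interval 0.441 to 1.68) against 2.71% of the whole young list, and of the old ones 8 overlapped a young site, 1.69% (0.731 to 3.30) against 5.56%. The rule leaves out sites on Foxa2, where 40.9% of young and 53.4% of old Hdac3 sites were shared. Distant sites were shared in 0.0912% and 0.184% of cases. Within 500 bp of an Hdac3 site of the other age lay 28 young neighbouring sites (2.57%, against 3.52% of the list) and 32 old ones (6.75%, against 7.47%). Within 10000 bp lay 103 young (9.45%, against 6.91%) and 134 old ones (28.3%, against 15.7%). Outside crowded windows the last shares were 6.45% and 16.1%, and those of distant sites 2.30% and 4.47%. The rule sets part of this contrast. Hdac3 sites on Foxa2 count as partners here, and a distant site can hardly have one within 10000 bp, while a neighbouring site can. How much of the contrast remains without such partners was not tested.

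The shared sites lay at 10 places, 4 of them in 1 run on chromosome 1 and 2 in runs on chromosome 8. At 8 of the 10 both Hdac3 sites were neighbouring sites, and at the other 2, both in the chromosome 1 run, the old site lay on Foxa2. The other 4 places were on chromosomes 2, 5, 16 and 18. On chromosome 5 a young site from 116473411 to 116473609 (authors' enrichment 37.6, q 0.0946) held an old site from 116473432 to 116473446 (15.3, q 0.0558), and an old-only Foxa2 site lay 2569 bp from the young one. On chromosome 2 the young site from 181667142 to 181667210 (enrichment 2.31, q 0.147) and the old one from 181667111 to 181667248 (2.0, q 0.101) lay 789 and 758 bp from a young-only Foxa2 site. On chromosome 16 the sites from 3351075 to 3351180 and from 3351062 to 3351186 lay 7855 and 7842 bp from a young-only Foxa2 site of 6 bp, and had enrichments of 1.75 and 1.90. The pair on chromosome 18, of 100 and 342 bp, lay 6475 and 6252 bp from a young-only Foxa2 site and had enrichments of 2.01 and 1.77. At 3 of these 4 places, then, the enrichment was under 3 at both ages, and at the one on chromosome 5 the old site was 15 bp wide.

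In width, young neighbouring sites resembled distant sites and old ones were slightly wider. The median width was 25 bp at 3 months and 24.5 bp at 21 months, against 24 and 20 bp over 10000 bp from Foxa2 and 74.5 and 102 bp for Hdac3 sites on Foxa2. Outside crowded windows the old neighbouring median was 21 bp. Under 30 bp wide were 57.8% of young and 57.2% of old neighbouring sites, against 56.3% and 58.5% of the lists. At least 100 bp wide were 24 young (2.20%, 95% interval 1.42 to 3.26) and 26 old ones (5.49%, 3.61 to 7.93), against 3.29% and 6.25% of the lists and 0.410% and 0.0920% of distant sites. Outside crowded windows this share was 1.83% at 3 months, and 1.53% at 21 months, where 6 of the 26 wide sites lay. The wide old neighbouring sites were thus mostly sites of crowded windows.

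**Figure D4:**
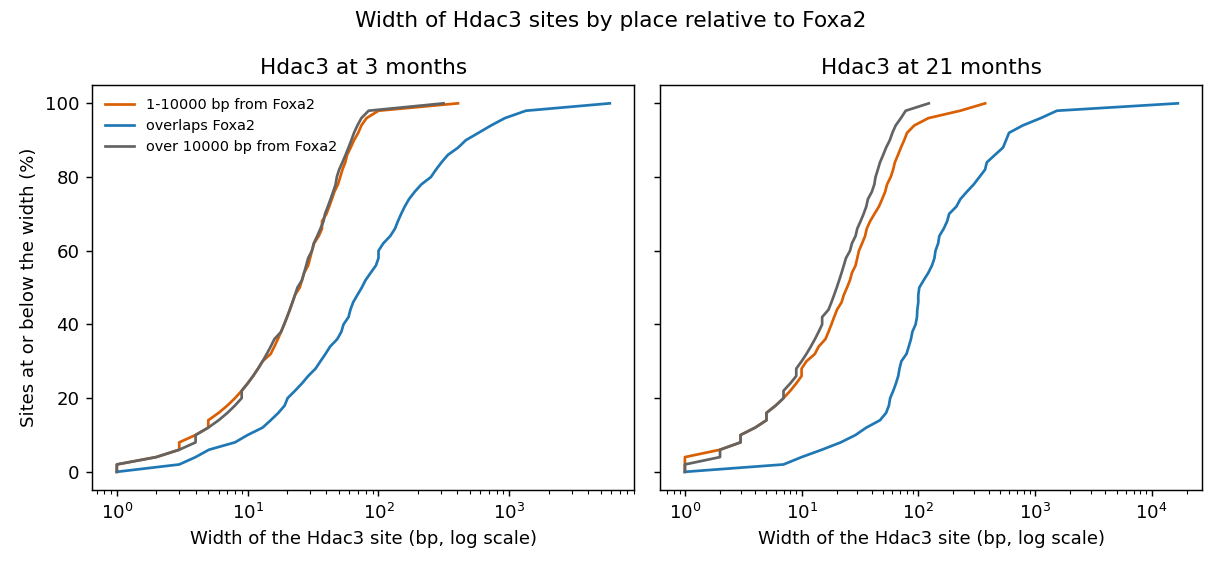
Cumulative share of Hdac3 sites (%) by width (bp, log axis) for sites 1 to 10000 bp from Foxa2, sites on Foxa2 and sites over 10000 bp away, at 3 months (left) and 21 months (right). Medians of neighbouring sites are 25 and 24.5 bp, and those of sites on Foxa2 are 74.5 and 102 bp, well to the right.

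By q-value, young neighbouring sites were close to the whole list, and old ones had a q of at most 0.1 less often. Median q values were 0.132 (young) and 0.0853 (old), against 0.129 and 0.0775 for the lists, and 245 young (22.5%, 20.0 to 25.1) and 333 old ones (70.3%, 65.9 to 74.3) had a q of at most 0.1, against 22.1% and 76.0% of the lists. A q of at most 0.05 was found in 6 young (0.550%) and 18 old neighbouring sites (3.80%), against 1.80% and 7.95% of the lists and 0 and 4.97% of distant sites. The authors' enrichment, a ratio whose reference is not given, had a median of 17.9 in young (18.6 in distant young sites) and 16.0 in old neighbouring sites (16.5 in distant old sites). Among old neighbouring sites its median fell with width, and among young ones the median did not. The old median was 168 for widths of 1 to 9 bp, 16.5 for 10 to 29 bp, 12.7 for 30 to 99 bp and 2.39 for 100 bp or more, and among young ones it was 18.6, 18.5, 15.9 and 18.6. The young upper quartile did fall, from 505 to 110, 43.2 and 36.9 over these classes. The widest class held only 24 young and 26 old sites, and 6 of the 26 lay outside crowded windows. The largest enrichments were on sites of 1 bp, namely 8037 on chromosome X at 32109424, 3468 on chromosome 6 at 112186094 and 3221 on chromosome 8 at 35013331 in the young list. In the old list they were 8978 on chromosome X at 101269338, 3600 on chromosome 8 at 45766479 and 3060 on chromosome 9 at 74527459. Their q values were 0.126, 0.0894 and 0.0846 in the young and 0.0763, 0.0974 and 0.129 in the old list, and none of the 6 was among the 5 lowest of its list's neighbouring sites.

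The neighbouring sites with the lowest q were mostly wide at 3 months and narrow at 21 months. The best young one lay on chromosome 7 from 35904091 to 35904324 (q 0.00425, enrichment 52.4), 700 bp from an old-only Foxa2 site. Next came chromosome 1 from 167391138 to 167391542 (q 0.0104, enrichment 18), 230 bp from an old-only Foxa2 site. The third, on chromosome 8 from 19701466 to 19701587 (q 0.0227), was also listed at 21 months. On chromosome 11 the site from 102091377 to 102091719 (q 0.0304) lay 8388 bp from a young-only Foxa2 site, and on chromosome 15 that from 53174811 to 53174975 (q 0.0365) lay 1890 bp from an old-only one. All 5 were between 122 and 405 bp wide. The best old one lay on chromosome 8 from 19773643 to 19773764 (q 0.0283, enrichment 30.7), 282 bp from an old-only Foxa2 site. The other 4 were 2 to 26 bp wide with q from 0.0475 to 0.0480, on chromosome 9 from 69852838 and from 8254635, on chromosome 4 from 62359879 and on chromosome 3 from 149110143.

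Neighbouring Hdac3 sites formed 1301 runs when those of both ages at most 10000 bp apart were joined. Of these 1169 held a single site, 47 held sites of both ages and 7 held 6 or more. The longest lay on chromosome 1 from 90113324 to 90205060 and held 20 young and 39 old neighbouring sites among 66 young and 16 old Foxa2 sites, with enrichments from 1.59 to 17.1 (median 3.42). On chromosome 16 from 3232795 to 3271898 there were 2 young and 12 old neighbouring sites, and on chromosome 8 the runs from 19692988 to 19713451 and from 19983709 to 19999547 held 3 young and 11 old ones together. On chromosome 4 lay a run of 2 young and 6 old sites from 42903658 to 42939177 and one of 4 and 3 from 146794055 to 146805822. The run on chromosome 19 from 5840686 to 5846850 was the other way round, with 6 young and 1 old neighbouring site within 6.17 kb and 2 old Foxa2 sites. In 5 of the 7 runs the old neighbouring sites were the more numerous, although the old list was the shorter one.

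**Figure D5:**
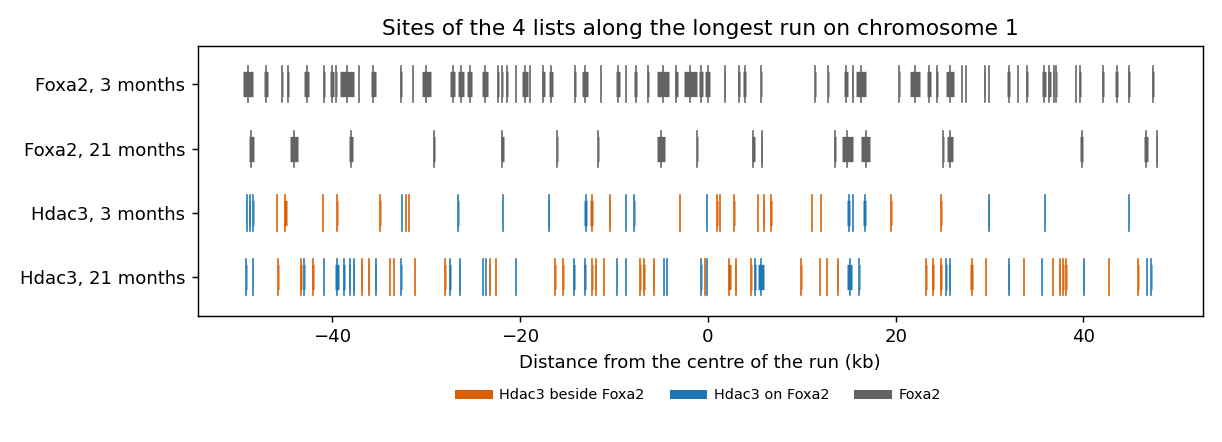
Sites of the 4 lists along the longest run on chromosome 1, by distance from its centre (kb), each drawn to scale with a thin upright tick at its middle and including 10 kb on each side. The lanes show 69 young and 19 old Foxa2 sites, and the Hdac3 lanes hold 20 young and 39 old sites beside Foxa2 with 17 and 34 on Foxa2.

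Neighbouring sites were scarce on the X chromosome, as were Foxa2 sites. The X held 15 young (1.38%) and 14 old neighbouring sites (2.95%), against 5.23% and 6.01% of the lists. Foxa2 had 333 sites there, and 3.04% of its DNA lay 1 to 10000 bp from one, compared with 7.52% to 13.5% on the autosomes. Per Mb of that neighbouring DNA the X held 3.04 young (95% interval 1.70 to 5.01) and 2.83 old sites (1.55 to 4.76), within the range of the autosomes, 2.89 to 6.64 and 1.05 to 4.18. For old sites only chromosome 1 was above the X, and chromosome 16 came next below it (2.80, 1.83 to 4.10). The highest density of young neighbouring sites was on chromosome 17 (6.64, 5.03 to 8.60) and that of old ones on chromosome 1 (4.18, 3.26 to 5.27), where the longest run alone held 39 of 71.

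Close pairs within 1 list were more common beside Foxa2. Another site of the same Hdac3 list lay within 10000 bp of 24.5% of young (22 to 27.2) and 26.2% of old neighbouring sites (22.3 to 30.4), against 8.62% and 5.38% of distant sites. Outside crowded windows the shares were 21.5% (19.0 to 24.1) and 11.3% (8.30 to 14.8), against 8.13% and 5.40%. Leaving out those windows lowers these shares by construction too. The rule also sets part of the contrast, since an Hdac3 site on Foxa2 can be the partner of a neighbouring site. Within 10000 bp of a distant site it hardly can. The shares without such partners were not tested.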

How the data were processed

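Per the labels' protocols, chromatin of snap-frozen livers was precipitated with a Foxa2 antiserum or an Hdac3 antibody, both from rabbit. BWA and mm9 are named in the submitters' processing notes, and no source used here names the peak caller, its control or its threshold. Each deposited site has, per the file headers, a begin, an end (other numbers, in bp), a fold enrichment (a ratio) and a q-value, all made by the authors; what the ratio is relative to is not given. The 2 libraries of a group name 1 list, and how they were combined is not given. Every site was used, and its end was counted as part of it, so that a site whose begin equals its end is 1 bp wide. No source says whether counting starts at 0 or 1, and positions are printed unchanged.

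Distances, shares and densities were computed with Python 3.11.15, numpy 2.4.6, pandas 2.3.3 and scipy 1.17.1, and drawn with matplotlib 3.10.9. Density divides sites by the DNA of each chromosome from the first listed site of the 4 lists to the last. The counts of neighbouring sites equalled those of bedtools 2.31.1 (1090 and 474), and 400 of 400 distances planted in artificial lists were recovered. Sites named are, per list, the 5 with the lowest q, the 3 with the highest enrichment, the 3 closest to Foxa2, those next to the limit and those shared between ages. The runs named are those of 6 or more neighbouring sites. The rule, the classes and the crowded windows were chosen with earlier results of these data known. Gene context, tissue markers and sequence motifs were not analysed here, because the gene and promoter tables at hand are of GRCm38, another build.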

Additional observations from a re-analysis of the deposited data

Results flagged for a closer look

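The share of sites with a q of at most 0.1 differed between neighbouring and distant Hdac3 sites in opposite directions at the 2 ages. At 3 months it was 22.5% beside Foxa2 and 20.4% over 10000 bp away, a difference of 2.07 percentage points. At 21 months it was 70.3% (65.9 to 74.3) and 77.0% (75.2 to 78.7), a difference of -6.74 points, and the whole old list had 76.0%. The difference between the ages was not tested, since each group had 1 list. Outside crowded windows the shares were 22.7% and 20.5% at 3 months, and 72.6% and 77.1% at 21 months. The direction stayed opposite there, but the intervals of neighbouring and distant sites overlapped at each age.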

How the results depend on the processing

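Of 120 recomputed values 80 stayed close to those reported, meaning a count within 1.5 times or another value within its 95% interval, and 40 moved. None of the 12 values each moved for autosomes, for distances between centres or with Hdac3 sites within 500 bp merged. With a limit of 5000 bp there were 722 young neighbouring sites and the median distances were 1330.5 bp (young) and 1226.5 bp (old). With 20000 bp the medians were 6097 and 5595.5 bp. A changed limit shifts counts and median distances by construction, and a width filter lowers counts, so these moves among the 40 do not measure stability. With only Foxa2 of the same age, 562 young sites qualified, at a median of 3203.5 bp. The nearest Foxa2 site was then of both ages for 50.5% of young and 38.1% of old sites and old-only for 61.9% of the old. Only 2 classes are possible at each age in this setting, so these shares rise by construction. Sites shared between ages were 2.14% of the 562 young and 8.58% of the 443 old sites. Hdac3 sites on Foxa2 of the other age can then count as neighbouring, and their part in these shares was not tested. With equal numbers of Foxa2 sites, 22.9% of young sites were nearest to both-age Foxa2, and 41.7% of young and 26.9% of old sites to old-only Foxa2. Only the old Foxa2 list was shortened here and the classes were formed anew, so these shares move partly by construction. With both Hdac3 and Foxa2 sites held to a q of at most 0.1, 212 young and 294 old sites were left, so that the old became the more numerous. The same holds for the whole Hdac3 lists, with 1288 young and 2227 old sites at this q. Among neighbouring sites, both-age shares were 21.7% and 19.0% and old-only shares 57.1% and 37.4%, with the Foxa2 classes again formed anew. Of the young ones 1.89% were shared. With Hdac3 sites of at least 30 bp, 460 young and 203 old sites were left, the old median distance was 1580 bp, old-only shares were 58.3% and 36.5%, and shared sites 1.74% and 3.45%. Without crowded windows, an alternative chosen after seeing the data, 0.385% of young sites were shared, the old median was 3539 bp, the old-only share of old sites 53.5% and the old density ratio 3.68. Apart from the moves said to arise by construction and the smaller number of sites, the cause of these shifts was not tested. No paired analysis was possible because both libraries of a group share 1 list, and no library could be left out. The unknown depth limits every comparison of list lengths.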

Other observations

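Seen from Foxa2, a young neighbouring Hdac3 site lay within 10000 bp of 270 of the 2690 young-list Foxa2 sites of both ages, 9.04% of young-only and 8.88% of old-only Foxa2 sites. An old neighbouring site lay within that distance of 4.54% (95% interval 3.78 to 5.39), 7.77% (6.95 to 8.65) and 2.90% (2.58 to 3.24) of them. Outside crowded windows these old values were 3.47%, 5.08% and 2.76%, and the young ones 9.61%, 7.46% and 8.70%. Both a young and an old neighbouring site lay within 10000 bp of 126 young-only Foxa2 sites (3.22%) and of 45 old-only ones (0.444%), or of 56 and 33 outside crowded windows (1.48% and 0.326%).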
